A study of Mus musculus with 12 samples.

Results

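The collagen genes of the mouse colon were taken as every gene in the deposited abundance table whose symbol is Col, a chain type number, a and a chain number. This rule gave 44 genes of 35688, with 218 annotated transcripts summed per gene. They comprise 11 fibrillar collagen genes (types I, II, III, V, XI, XXIV and XXVII), 6 basement membrane collagen genes (the type IV chains) and 27 other collagen genes. RNA came from the full thickness of the colon of mice 2 weeks old. In 6 samples the mice lacked both Il10, the gene of an anti-inflammatory cytokine, and Tnfr1 (symbol Tnfrsf1a), a receptor for tumour necrosis factor, and are named Il10-/- Tnfr1-/-. In 5 samples the mice lacked Il10 alone and are named Il10-/-. Both groups carry the Il10 deletion, no sample has an intact Il10 gene, and the labels give no sex, litter or date. A sixth Il10-/- sample was not analysed here. The comparison asked how loss of Tnfr1 bears on the young colon of mice that lack Il10.

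Collagens are secreted proteins of 3 chains wound into a triple helix, in which glycine recurs at a fixed spacing because no larger side chain has room at the centre. Fibrillar collagens form the tensile fibrils of the submucosa and of the connective tissue between muscle layers, and are made mainly by fibroblasts and smooth muscle cells. Type IV collagen forms the sheet-like network under epithelium and around vessels, muscle cells and nerves, and the remaining types decorate fibrils, form beaded filaments or span the cell membrane.

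The repeat is visible in the coding sequence, and the stretches shown here let the uninterrupted helix of the 3 most abundant fibrillar chains be set against the interrupted helix of both abundant type IV chains. Each is read 5′ to 3′ from the longest protein-coding transcript in GENCODE release M21 (mm10), and capitals mark codons that begin with GG, all of which encode glycine.
Col1a1 (chromosome 11), codons 168 to 188: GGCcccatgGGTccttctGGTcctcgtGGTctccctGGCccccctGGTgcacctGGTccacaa
Col1a2 (chromosome 6), codons 97 to 117: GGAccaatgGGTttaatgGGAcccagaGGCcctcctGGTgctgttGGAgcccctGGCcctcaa
Col3a1 (chromosome 1), codons 164 to 184: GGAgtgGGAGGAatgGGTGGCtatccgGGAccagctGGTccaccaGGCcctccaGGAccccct
Col4a1 (chromosome 8), codons 154 to 177: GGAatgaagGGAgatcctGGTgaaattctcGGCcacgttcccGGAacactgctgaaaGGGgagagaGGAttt
Col4a2 (chromosome 8), codons 163 to 186: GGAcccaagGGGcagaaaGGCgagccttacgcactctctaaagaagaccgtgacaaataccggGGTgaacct
In Col1a1, Col1a2 and Col3a1 the stretch is the first 7 repeats of a run that goes on for 338, 339 and 344 repeats without a break. In Col4a1 and Col4a2 the stretch spans the first break after a run of at least 10 repeats, and the longest unbroken runs of these chains are 40 and 66 repeats. Over complete coding sequences, the longest run had a median of 338 repeats in 11 fibrillar genes (range 216 to 344), 43.5 in 6 type IV genes (range 39 to 66) and 48.5 in 26 other collagen genes (range 23 to 113).

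Upstream windows are shown for 2 genes whose windows hold no annotated exon: Col3a1 as the collagen gene of highest level, and Col8a1 as one of low level. Each holds the 250 bases before the start in RefSeq on GRCm38.p6, and capitals mark matches on either strand to TATAAA or GGGCGG.
Col3a1, chr1:45311288-45311537, plus strand: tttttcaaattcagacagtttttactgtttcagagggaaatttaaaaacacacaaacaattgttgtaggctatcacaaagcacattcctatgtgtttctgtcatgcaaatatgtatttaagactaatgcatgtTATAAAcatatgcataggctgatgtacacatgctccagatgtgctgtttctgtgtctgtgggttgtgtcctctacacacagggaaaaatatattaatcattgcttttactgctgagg
Col8a1, chr16:57754738-57754987, minus strand: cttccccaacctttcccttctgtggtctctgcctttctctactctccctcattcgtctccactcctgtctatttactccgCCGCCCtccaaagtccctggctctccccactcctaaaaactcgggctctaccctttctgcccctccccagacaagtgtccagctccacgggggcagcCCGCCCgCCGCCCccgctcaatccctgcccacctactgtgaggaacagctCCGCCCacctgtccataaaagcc
Col3a1 has 1 match to TATAAA, which 12.4% of 32851 windows hold, and none to GGGCGG. Col8a1 has 4 matches to GGGCGG, read on the opposite strand as CCGCCC, which 32.7% of windows hold, and none to TATAAA. Among 35 collagen genes with a window, 5 hold TATAAA, 21 hold GGGCGG and 13 hold CCAAT, which is in 33.8% of all windows. A gene was counted if any of its windows held the letters, while the percentages are of single windows, so the 2 cannot be compared directly. These are matches of letters only.

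The values are abundances per transcript in the authors' units. The values themselves show them to be divided by transcript length, so levels of different genes are compared per length. The total per library was between 804109 and 1378971 units, and 41.7% to 55.1% of transcripts were listed at 0. Il10-/- Tnfr1-/- replicates 3 and 4 had the lowest totals (804109 and 848706 units) and the fewest transcripts at 0 (42.1% and 41.7%). Il10-/- replicate 6 had the highest total, 1378971 units, and the most transcripts at 0, 55.1%. The part of these differences between libraries in the collagen values was not tested. No read counts are given, so the depth is unknown. The labels do not say whether the samples of a genotype came from separate litters, so p-values measure only the spread between these samples. As a check of the labels, Tnfrsf1a averaged 14.8 ± 2.34 units in Il10-/- Tnfr1-/- colons (SD, n = 6) and 47.9 ± 18.5 units in Il10-/- colons (SD, n = 5), and the genotypes did not overlap. The difference on the log2 scale was -1.60 ± 0.22 (SE; adjusted p = 0.125, limma). Il10, which the labels give as deleted in every mouse, was still listed at 3.27 to 7.23 units in Il10-/- Tnfr1-/- colons and at 9.06 to 22.9 units in Il10-/- colons, without overlap (log2 fold change -1.44 ± 0.28, SE; adjusted p = 0.536, limma). Whether these transcripts lie outside the deleted part of Il10 was not examined. The colon epithelium marker Lgals4 was between 2305 and 9721 units in all samples. The submitters' names of the samples start with a digit that the labels do not explain: 1 in 2 Il10-/- Tnfr1-/- and 3 Il10-/- samples, 2 in Il10-/- Tnfr1-/- replicates 3 and 4, 3 in another 2 Il10-/- Tnfr1-/- samples, and 4 in 2 Il10-/- samples. Because these are bulk tissue values, fewer cells of a type and less RNA per cell cannot be told apart.

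Collagen levels varied widely among colons of the same genotype: the SD within a genotype of the class mean on the log2 scale was 0.93 for fibrillar, 0.95 for type IV and 0.74 for other collagen genes. Summed over transcripts, Col3a1 had the highest mean level over all 11 colons (263 units). Col4a1 (69.3 units), Col1a2 (60.6 units) and Col1a1 (52.5 units) followed. Col3a1 exceeded Col4a1 in all 11 colons, while the ranges of Col4a1, Col1a2 and Col1a1 over samples overlapped. On its longest coding transcript alone, Col4a1 averaged 38.3 units in Il10-/- Tnfr1-/- colons and 10.6 units in Il10-/- colons. Both means were below those of Col1a2 (76.97 and 38.36 units) and Col1a1 (67.67 and 34.03 units) on theirs. The place of Col4a1 above Col1a2 and Col1a1 therefore holds for sums over transcripts only. Col3a1 was still the highest of these genes (186.8 and 82.5 units). Summed over the fibrillar genes, Il10-/- Tnfr1-/- colons had between 176 and 1401 units with a median of 284. The same sum in Il10-/- colons was 214, 357, 379, 208 and 57.5 units. Il10-/- Tnfr1-/- replicates 3 and 4, at 1039.8 and 1401 units, stood above every other sample, and the other 4 lay within the range of the Il10-/- colons. Type IV genes summed to between 50.7 and 278 units in Il10-/- Tnfr1-/- colons, with a median of 82.1 units. In Il10-/- colons the type IV sum was 59.2, 86.6, 119.6, 56.9 and 21.6 units. The same 2 samples were highest and Il10-/- replicate 6 was lowest. The other collagens summed to between 139.6 and 608 units in Il10-/- Tnfr1-/- colons, with a median of 208 units. The Il10-/- colons had 107.5, 231, 429, 170.0 and 123 units, so that Il10-/- replicate 3 reached nearly the level of Il10-/- Tnfr1-/- replicate 3 at 444 units.

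**Figure D1:**
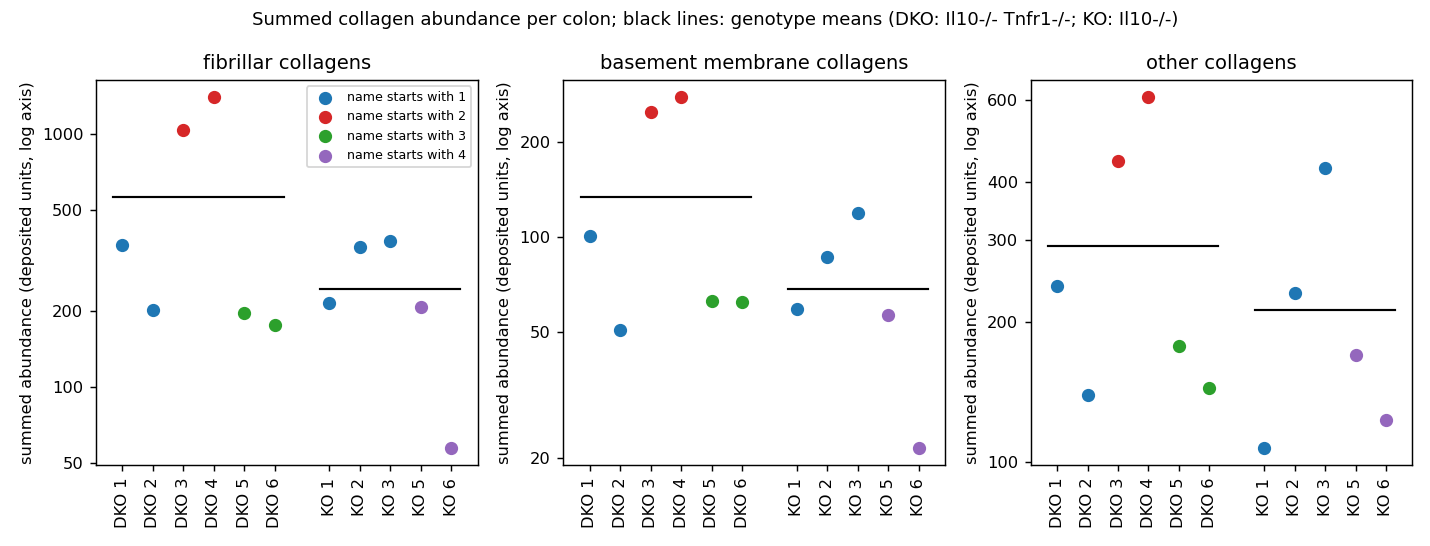
Summed abundance of fibrillar, basement membrane and other collagen genes (log axes, deposited units) in each colon, coloured by the first digit of the sample name, with black lines at genotype means. Il10-/- Tnfr1-/- replicates 3 and 4 are the highest 2 samples in every panel, and the remaining samples of both genotypes overlap.

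Of the 44 genes, 26 passed the filter on low values (a value over 1 in at least 5 samples): 8 fibrillar, 3 type IV and 15 others. Each passed gene had values over 1 in samples of both genotypes. In limma with Benjamini-Hochberg adjustment over 13561 genes, none of the 26 was called at an adjusted p under 0.05, and 0% of all genes tested were. Their adjusted p-values were between 0.536 and 0.980. At an unadjusted p under 0.05, 0 collagen genes were higher and 0 were lower, against 4.74% of all genes tested that were higher and 3.6% that were lower. No collagen gene separated the genotypes without overlap, as 0.31% of all genes did with higher and 0.265% with lower values in Il10-/- Tnfr1-/- colons. The log2 fold change was above 0 for 21 of 26 collagen genes, with a median of 0.71, and for 55.5% of all genes, with a median of 0.05. Under quantile normalization it was above 0 for 18 of 26, beside 48% of all genes, and Col11a2 was then lower at an unadjusted p of 0.0203 (adjusted p = 0.505, limma), a limit that 5.67% of all genes passed in that direction. By class, 7 of 8 fibrillar genes had a log2 fold change above 0 (median 0.74), as did 3 of 3 type IV genes (median 0.82) and 11 of 15 others (median 0.57). With no filter, 36 of 44 genes had a value above 0, with a median of 0.43, beside 56.4% of all genes. The genes were measured in the same 11 colons, so these counts are not independent of each other.

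The order of the samples was shared by most collagen genes. Il10-/- Tnfr1-/- replicates 3 and 4 were both among the highest 2 samples in 16 of the 26 genes (61.5%), and in 13.7% of all genes tested. Il10-/- replicate 6 was the lowest sample in 15 of the 26 (57.7%), and in 23.9% of all genes. Among the Il10-/- colons alone, replicate 3 was highest in 22 of the 26 (84.6%), and in 23.3% of all genes. The median SD of the log2 values over the 11 samples was 1.00 for collagen genes and 0.43 for all genes.

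**Figure D2:**
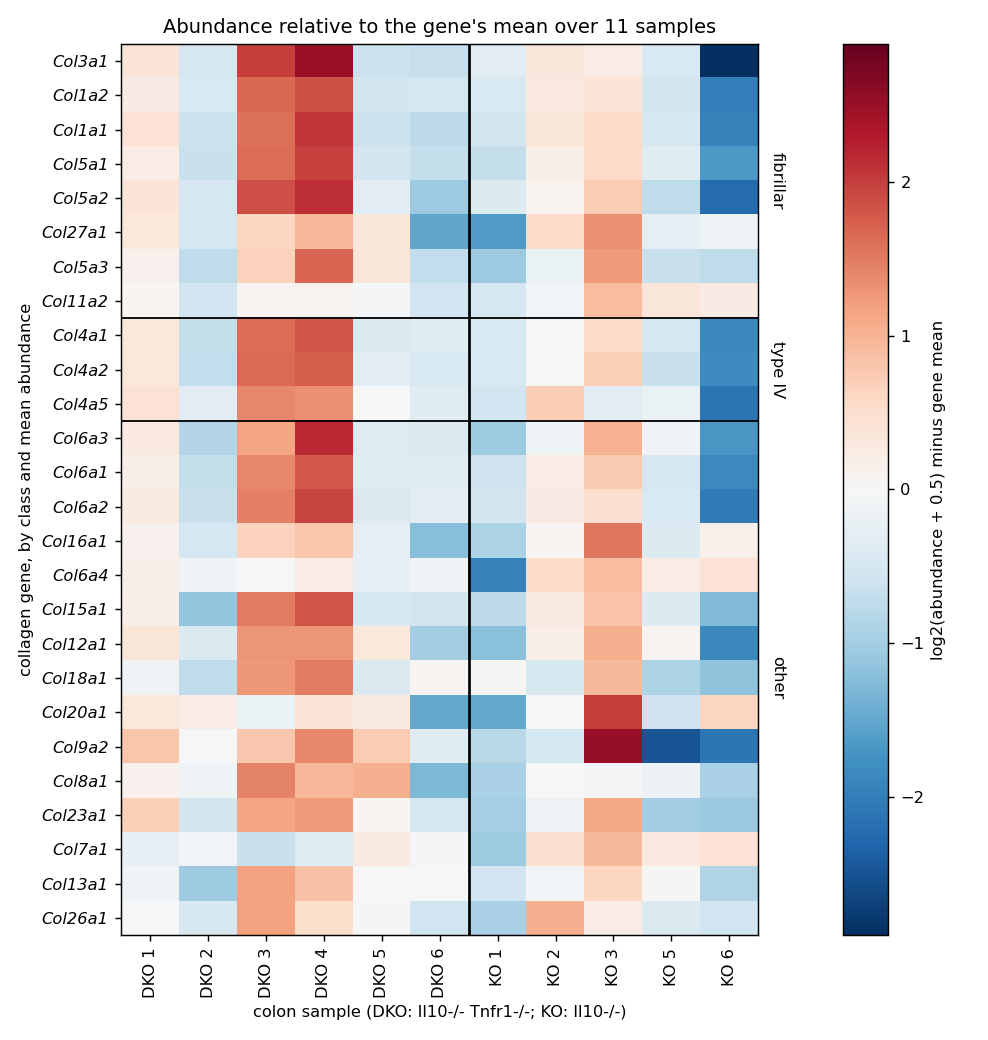
Abundance of the 26 tested collagen genes (rows, by class) in each colon (columns), as log2(abundance + 0.5) minus the gene's mean over all 11 samples. Il10-/- Tnfr1-/- replicates 3 and 4 are high and Il10-/- replicate 6 is low for most fibrillar, type IV and type VI genes. Col16a1, Col6a4, Col20a1 and Col7a1 are among the genes that follow other orders.

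Among the fibrillar genes, Col3a1 (ENSMUSG00000026043, chr1:45311538-45349706, plus strand, mm10), the chain of type III collagen that abounds in distensible organs, had the highest level of all collagen genes. It was between 106 and 955 units in Il10-/- Tnfr1-/- colons, with a median of 171, and replicates 3 and 4 had 685 and 955 units. Il10-/- colons had 136, 214, 197, 124 and 22.5 units. Replicates 3 and 4 of Il10-/- Tnfr1-/- lay above all other samples, Il10-/- replicate 6 lay below all, and the rest overlapped. Col3a1 had a log2 fold change of 1.14 ± 0.72 (SE; adjusted p = 0.541, limma; two-sided exact permutation p = 0.238). Col3a1 took 32.7% ± 6.57 of all collagen abundance in Il10-/- Tnfr1-/- colons and 25.7% ± 9.72 in Il10-/- colons (SD, n = 6 and 5), with a range of 11.1% to 41.7% over samples. These shares include a coding transcript of 737 bases that held 30.2% to 50.9% of Col3a1 over the samples.

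Type I collagen, the main fibril protein of most tissues, is built from the chains of Col1a1 (ENSMUSG00000001506, chr11:94936224-94953042) and Col1a2 (ENSMUSG00000029661, chr6:4504814-4541544). Col1a2 averaged 78.4 ± 63.0 units in Il10-/- Tnfr1-/- colons and 39.2 ± 20.3 units in Il10-/- colons (SD), with a log2 fold change of 0.83 ± 0.55 (SE, adjusted p = 0.549, limma). Col1a1 was between 22.5 and 164 units in Il10-/- Tnfr1-/- colons, with a median of 38.3, and at 26.7, 49.9, 57.1, 27.3 and 9.54 units in Il10-/- colons, with the same extremes as Col3a1. Col1a1 averaged 67.8 ± 59.8 units in Il10-/- Tnfr1-/- colons and 34.1 ± 19.2 units in Il10-/- colons, with a log2 fold change of 0.76 ± 0.60 (SE, adjusted p = 0.589, limma). Although Col1a1 varied 17.2-fold and Col1a2 14.8-fold over the 11 samples, their ratio stayed between 0.693 and 0.977. Type V collagen, which sits inside type I fibrils and sets their width, was measured through Col5a1, Col5a2 and Col5a3. Col5a1 and Col5a2 had the same 2 highest samples and the same lowest sample as Col3a1, and Col5a3 did not: Il10-/- replicate 3 exceeded Il10-/- Tnfr1-/- replicate 3, and Il10-/- replicate 1 was lowest. Col5a2 was between 4.09 and 41.7 units in Il10-/- Tnfr1-/- colons (median 9.48) and at 6.69, 9.73, 15.4, 5.25 and 1.52 units in Il10-/- colons. The difference on the log2 scale was 0.93 ± 0.65 for Col5a2 (SE, adjusted p = 0.562, limma), and that of Col5a1 was 0.72 ± 0.56. Col5a2 lies 24614 bases from Col3a1 on the opposite strand, and the ratio of Col3a1 to Col5a2 was between 12.8 and 25.9. Col5a3 had a log2 fold change of 0.51 ± 0.49. Col27a1, a fibrillar chain known from cartilage, had one of 0.07 ± 0.53. The smallest fibrillar value was that of Col11a2, a cartilage chain near the filter limit, at -0.34 ± 0.28.

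The type IV pair Col4a1 (ENSMUSG00000031502, chr8:11198423-11312826, minus strand) and Col4a2 (ENSMUSG00000031503, chr8:11312805-11449287, plus strand) encode the chains of the common basement membrane network, and their genes overlap head to head by 22 bases. Col4a1 was between 33.1 and 189 units in Il10-/- Tnfr1-/- colons, with a median of 54.3. Il10-/- colons had 39.6, 54.7, 79.8, 37.6 and 14.4 units. Col4a1 had a log2 fold change of 0.82 ± 0.53 (SE, adjusted p = 0.547, limma), and that of Col4a2 was 0.81 ± 0.54. The ratio of Col4a1 to Col4a2 stayed between 2.34 and 2.84 in all 11 colons, with a mean of 2.57 ± 0.120 in Il10-/- Tnfr1-/- and 2.59 ± 0.175 in Il10-/- colons (SD). The SD of the log2 ratio was 0.08, where that of the log2 level of Col4a1 was 1.06. These are ratios of sums over transcripts, and not of full-length transcripts. The longest coding transcript held 10.1% to 51.9% of Col4a1 over the samples, and 100% of Col4a2 in each. Col4a5 (ENSMUSG00000031274, chrX:141475385-141689234), the X-linked chain, had the smallest unadjusted p of all collagen genes. It was between 4.19 and 15.4 units in Il10-/- Tnfr1-/- colons (median 6.51) and at 3.63, 9.39, 4.37, 4.79 and 0.891 units in Il10-/- colons. Its log2 fold change was 0.89 ± 0.49 (SE, adjusted p = 0.536, limma; two-sided exact permutation p = 0.145). Without Il10-/- replicate 2 it was 1.19 ± 0.48, with an unadjusted p of 0.0287 and an adjusted p of 0.374 in limma, in a fit where 6.54% of all genes were higher at that limit. Col4a6, its neighbour on the X chromosome, missed the filter with values over 1 in 4 samples, and Col4a3 and Col4a4, the chains known from kidney and cochlea, never exceeded 1.

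Type VI collagen, which forms beaded filaments around cells, made up the top of the remaining genes. Col6a1 (ENSMUSG00000001119, chr10:76708792-76726168) was between 19.3 and 109 units in Il10-/- Tnfr1-/- colons, with a median of 30.5. Il10-/- colons had 20.8, 36.6, 54.0, 22.5 and 8.37 units, and the log2 fold change was 0.72 ± 0.53 (SE, adjusted p = 0.578, limma). Replicates 3 and 4 of Il10-/- Tnfr1-/-, at 83.4 and 109 units, were again the highest 2 samples. Col6a2, a partner chain in the same molecule, had a log2 fold change of 0.85 ± 0.55, and its ratio to Col6a1 was steady, with Col6a1 at 1.05 to 1.48 times Col6a2. Col6a3, a further chain of that molecule, had a log2 fold change of 0.71 ± 0.58. Between 72.7% and 84.5% of its abundance was assigned to a transcript of 646 bases annotated as a retained intron, and not to a coding transcript.

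The basement membrane zone collagens Col15a1 and Col18a1, whose cleaved ends include endostatin in the case of Col18a1, had log2 fold changes of 0.50 ± 0.55 and 0.57 ± 0.47. Col12a1, which binds to the surface of fibrils, had one of 0.64 ± 0.55. Col8a1, Col9a2 and Col23a1 had the smallest p-values of the remaining collagens, and none was called. Col8a1, a short-chain collagen of vessel walls, was between 0.475 and 6.02 units in Il10-/- Tnfr1-/- colons (median 3.15) and at 0.753, 1.89, 1.87, 1.66 and 0.764 units in Il10-/- colons. Its log2 fold change was 0.77 ± 0.45 (SE, adjusted p = 0.537, limma), and without Il10-/- Tnfr1-/- replicate 6 it was 1.10 ± 0.35 with an unadjusted p of 0.00918, at which limit 5.82% of all genes were higher. Col23a1, a transmembrane collagen, had a log2 fold change of 0.77 ± 0.47. Col9a2, a fibril-associated chain known from cartilage, was between 1.81 and 7.26 units in Il10-/- Tnfr1-/- colons (median 4.50). In Il10-/- colons it was at 1.18, 1.57, 16.5, 0.0166 and 0.193 units, so 4 of these 5 lay below every Il10-/- Tnfr1-/- colon and replicate 3 lay above all. The log2 fold change of Col9a2 was 1.24 ± 0.74 (SE, adjusted p = 0.537, limma). Without Il10-/- replicate 3 it was 2.05 ± 0.45 for Col9a2 (unadjusted p = 0.000796, adjusted p = 0.246, limma) and 1.16 ± 0.41 for Col23a1 (unadjusted p = 0.0153), and 7.54% of all genes were higher at an unadjusted p under 0.05 in that fit. Col9a2, Col8a1 and Col23a1 are low, and a log2 scale with 0.5 added understates changes of such genes.

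Col16a1, Col6a4 and Col7a1 did not share the common order of samples. Nor did Col27a1, Col5a3, Col11a2, Col20a1, Col9a2, Col8a1 and Col26a1 have Il10-/- Tnfr1-/- replicates 3 and 4 as their highest 2 samples. Col16a1, Col6a4 and Col7a1 were singled out after their values had been seen. Col16a1 (ENSMUSG00000040690, chr4:130047840-130099283), a fibril-associated collagen, was between 12.1 and 52.0 units in Il10-/- Tnfr1-/- colons (median 28.1). Il10-/- colons had 15.3, 30.3, 85.6, 22.3 and 32.3 units, with replicate 3 the highest of all samples. Col16a1 had a log2 fold change of -0.15 ± 0.45 (SE, adjusted p = 0.884, limma). Col6a4, a further type VI chain, was between 24.7 and 34.1 units in Il10-/- Tnfr1-/- colons (median 28.1). Il10-/- colons had 7.11, 42.2, 54.3, 33.9 and 39.2 units, with replicate 1 far below the other samples. Col6a4 had a log2 fold change of -0.03 ± 0.41 with all samples. Without Il10-/- replicate 1 it was -0.52 ± 0.16, with an unadjusted p of 0.00712 and an adjusted p of 0.248 in limma. In that fit Col7a1, the anchoring fibril collagen under squamous epithelium, had a log2 fold change of -0.72 ± 0.24 (unadjusted p = 0.0109, adjusted p = 0.248, limma), and 7.14% of all genes were lower at that limit. With all samples that of Col7a1 was -0.41 ± 0.33, and that of Col20a1 was -0.19 ± 0.55.

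The ratios of Col6a4 and Col16a1 to genes of the common order varied more than those within the type I and type IV pairs. Both genes were picked because they did not share that order, so wide ratios follow from the choice and add no separate evidence. The ratio of Col6a4 to Col6a1 was between 0.313 and 4.69 over the 11 colons, and that of Col16a1 to Col1a1 between 0.316 and 3.39. Both ratios were highest in Il10-/- replicate 6 and lowest in Il10-/- Tnfr1-/- replicate 4. Col6a4 alone took a mean of 4.58% of all collagen abundance in Il10-/- Tnfr1-/- colons and 8.23% in Il10-/- colons, with a range of 1.49% to 19.4% over samples.

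**Figure D3:**
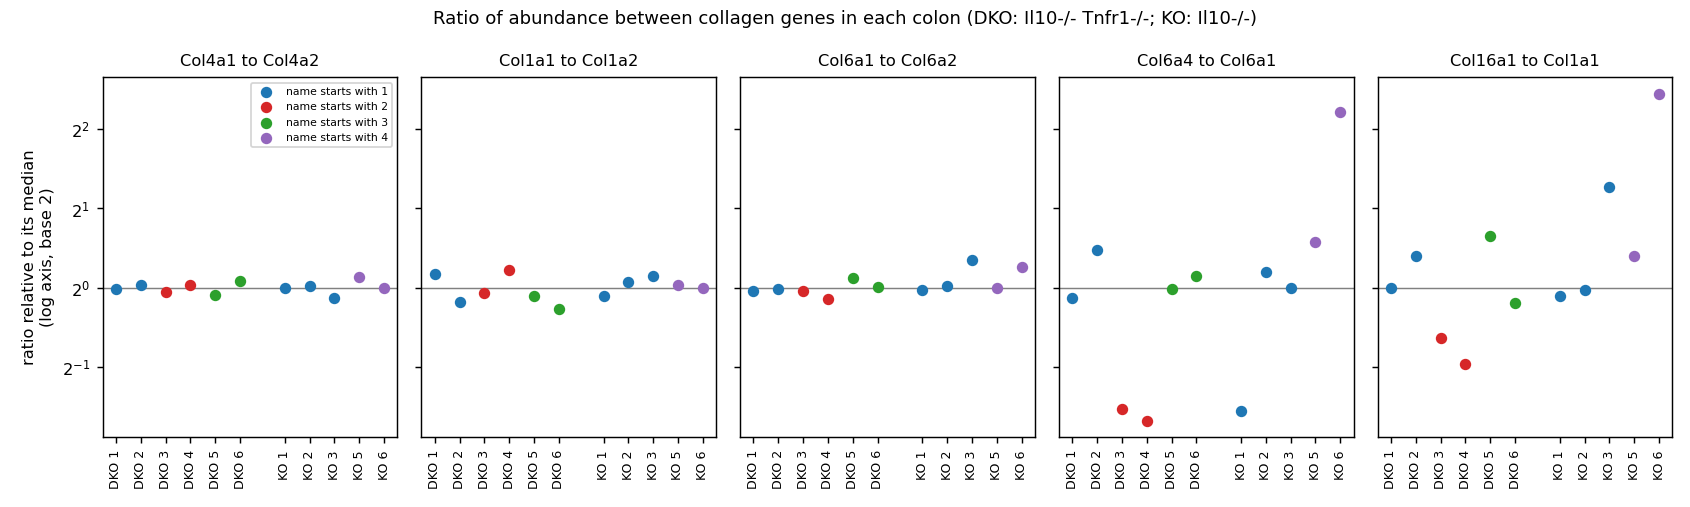
Ratio of abundance between pairs of collagen genes in each colon, divided by the median ratio over 11 samples (log axis, base 2), coloured by the first digit of the sample name. The Col4a1 to Col4a2, Col1a1 to Col1a2 and Col6a1 to Col6a2 ratios lie close to 1 in every sample, and the Col6a4 to Col6a1 and Col16a1 to Col1a1 ratios spread 15.0-fold and 10.7-fold.

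Several collagen genes carried much of their abundance on short or non-coding transcripts, both genes that followed the common order and genes that did not. A coding transcript of 1784 bases held 67.9% to 88.2% of Col12a1, and one of 1755 bases held 35.6% to 89.3% of Col15a1. A processed transcript of Col16a1 of 833 bases (ENSMUST00000135675.1) held 31.3% to 86.1% of the gene in the 11 colons. The full-length coding transcript of Col16a1 (ENSMUST00000044565.14, 5206 bases) was at 1.08 ± 1.13 units in Il10-/- Tnfr1-/- colons and 0.219 ± 0.237 units in Il10-/- colons (SD), and Il10-/- Tnfr1-/- replicates 3 and 4 were its highest 2 samples. For Col6a4, a transcript of 1086 bases annotated for nonsense-mediated decay (ENSMUST00000218471.1) held 61.5% to 73.5% of the gene. The coding transcript of Col6a4 (ENSMUST00000121963.2, 7371 bases) was between 2.25 and 5.69 units in Il10-/- Tnfr1-/- colons and between 1.19 and 5.20 units in Il10-/- colons, and Il10-/- Tnfr1-/- replicates 3 and 4 were again its highest 2 samples.

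For Col4a1 the full-length transcript (ENSMUST00000033898.9, 6615 bases) was between 10.9 and 85.9 units in Il10-/- Tnfr1-/- colons, with a median of 19.4. In Il10-/- colons it was at 17.8, 19.7, 8.04, 5.68 and 1.52 units. It held 10.1% of the gene in 1 sample and 51.9% in another. Over 27895 transcripts fitted with limma, 0 were called. Among the 38 collagen transcripts fitted, 1 was higher at the unadjusted limit of 0.05, beside 3.5% of all transcripts, and 0 were lower. The higher one was this Col4a1 transcript, with a log2 fold change of 1.69 ± 0.74 (SE; unadjusted p = 0.0422, adjusted p = 0.646, limma). The full-length Col15a1 transcript (ENSMUST00000102917.10) averaged 6.38 ± 7.26 units in Il10-/- Tnfr1-/- colons and 1.56 ± 1.38 units in Il10-/- colons (SD), and held 1.16% to 33.6% of the gene. Long transcripts of genes in general also took different shares in different libraries. Over 2285 tested genes with a coding transcript of at least 5000 bases, the median share on that transcript was 42.0% and 37.7% in Il10-/- Tnfr1-/- replicates 3 and 4 and 27.9% to 30.9% in the other 4. It was 36.3%, 31.7%, 25.5%, 26.4% and 22.2% in Il10-/- colons. For the 20 collagen genes among them, the median share was 48.6% in Il10-/- Tnfr1-/- replicate 3 but 36.2% in replicate 4, and 38.8% to 45.7% in the other 4. In Il10-/- colons it was 35.0%, 42.8%, 28.1%, 27.8% and 30.3%. The part of the difference between libraries over all these genes in the collagen values was not tested.

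**Figure D4:**
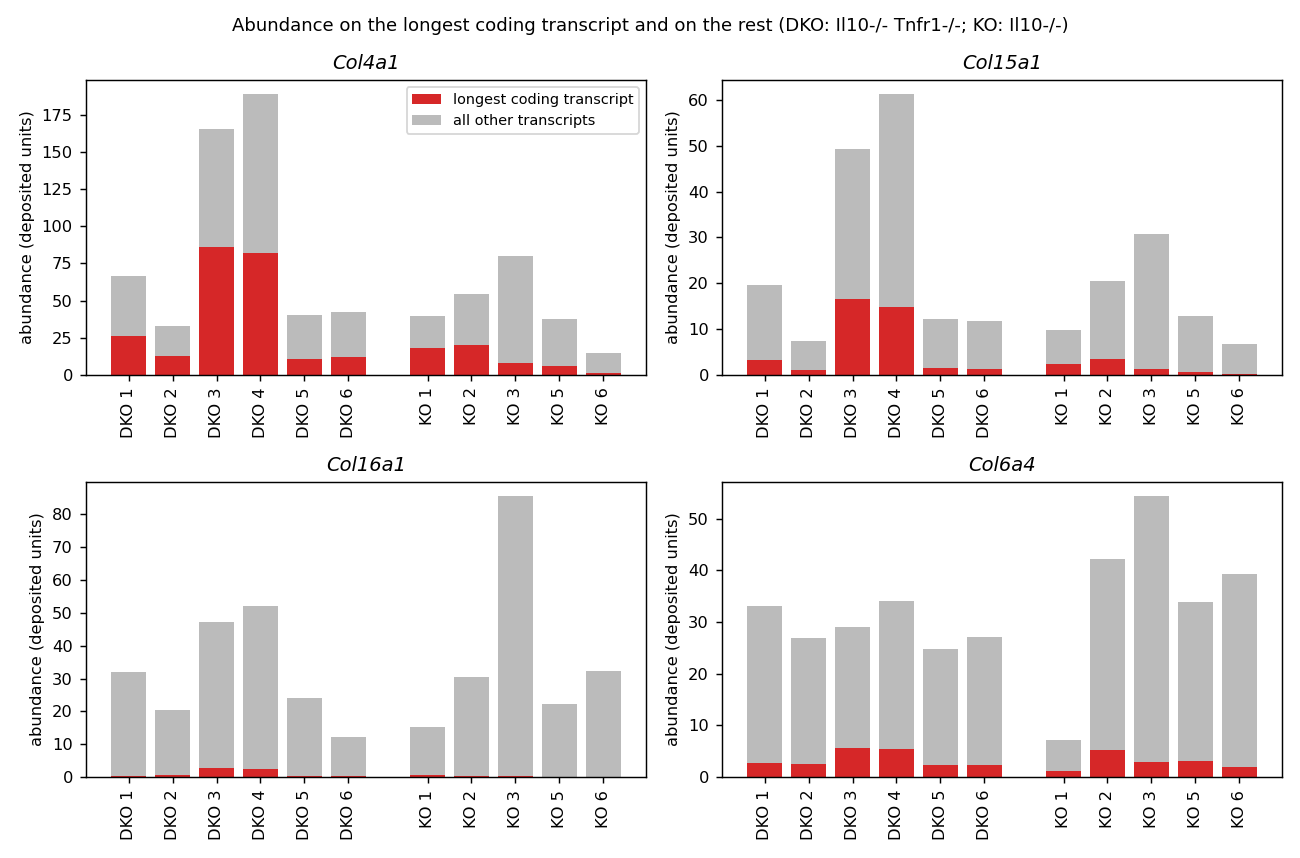
Abundance of Col4a1, Col15a1, Col16a1 and Col6a4 in each colon (deposited units), split into the longest coding transcript (red) and all other transcripts (grey). Most of each bar is grey for Col15a1, Col16a1 and Col6a4, and for Col4a1 in every sample but Il10-/- Tnfr1-/- replicate 3. The red part is highest in Il10-/- Tnfr1-/- replicates 3 and 4 in all 4 panels.

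When each gene was represented by its longest coding transcript alone, 17 collagen genes passed the filter and 17 had a log2 fold change above 0, with a median of 0.77, beside 67.2% of all genes with a median of 0.17. Col4a1 was higher at an unadjusted p of 0.0390 (adjusted p = 0.553, limma) in that fit, in which 5.77% of all genes were higher at the same limit.

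The 18 genes not tested had low values: 11 never exceeded 1 and 7 did so in 1 to 4 samples, and 6 were listed at 0 in at least 1 sample. Col14a1, a fibril-associated collagen of fibroblasts, reached 3.71 and 11.7 units in Il10-/- Tnfr1-/- replicates 3 and 4 and stayed under 1 in all other samples. Il10-/- Tnfr1-/- replicate 3 or 4 was the highest sample in 14 of these 18 genes. The share of all untested genes for which this holds was not computed, so the count cannot be read as particular to collagens. These samples also had the fewest transcripts at 0 (42.1% and 41.7%). Col11a2 was just inside the filter with 5 samples over 1, at means of 0.822 units in Il10-/- Tnfr1-/- and 1.22 units in Il10-/- colons. Col4a6, Col11a1, Col24a1 and Col28a1 were just outside with 4 samples over 1. The cartilage chain Col2a1 was at most 0.12 units in any colon.

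Leaving out Il10-/- Tnfr1-/- replicates 3 and 4, the samples whose names start with 2, brought the median log2 fold change to 0.04 for fibrillar, 0.16 for type IV and 0.03 for other collagen genes. In that fit 16 of 24 collagen genes were above 0, beside 48.5% of all genes. Col3a1 then had a log2 fold change of 0.27, Col1a1 one of 0.01 and Col4a1 one of 0.16. The medians also moved by more than 1.5 times when single colons were left out. They were 0.41, 0.54 and 0.32 for the fibrillar, type IV and other classes without Il10-/- Tnfr1-/- replicate 4, and 0.40, 0.47 and 0.26 without Il10-/- replicate 6. The median of the other class was also 0.36 without Il10-/- Tnfr1-/- replicate 3 and 0.86 without Il10-/- replicate 3. Within the samples whose names start with 1, 2 Il10-/- Tnfr1-/- and 3 Il10-/-, 6 of 26 collagen genes were above 0, beside 43.6% of all genes, and the class medians were -0.21, -0.25 and -0.25. An exact permutation test on so few samples cannot give a p below 0.1. The other first digits hold samples of 1 genotype only, so that whatever they stand for and the genotype cannot be told apart there.

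The summed smooth muscle markers were highest in the same 2 samples as the summed collagens, and no correlation between them was computed. All 10 smooth muscle markers were tested, 10 had a log2 fold change above 0 (median 1.77), and 9 were higher at an unadjusted p under 0.05, beside 4.74% of all genes, with 0 called. The median was 1.05 without the samples whose names start with 2 and 0.07 within those whose names start with 1. Their summed abundance was between 828 and 8010 units in Il10-/- Tnfr1-/- colons and between 184 and 3505 units in Il10-/- colons, and no marker was at 0 in all samples. Actg2, an actin of visceral smooth muscle, had a log2 fold change of 2.57 ± 0.92, and Mylk, the myosin light chain kinase, one of 1.66 ± 0.66. Il10-/- Tnfr1-/- replicates 3 and 4 had the highest sums, 8010 and 7144 units, followed by Il10-/- replicate 3 with 3505 units, and Il10-/- replicates 5 and 6 had the lowest, 184 and 201 units. The order was not that of the collagens throughout. Il10-/- replicate 5 had a fibrillar sum of 208 units. Il10-/- Tnfr1-/- replicate 5 had a lower fibrillar sum, 197 units, at a smooth muscle sum of 2169 units. In a fit that included the mean centred log2 value of these 10 markers, 2 of 26 collagen genes had a log2 fold change above 0, beside 44.2% of all genes, and the class medians were -0.39, -0.23 and -0.33. Col16a1 was then lower at an unadjusted p of 0.0272 (log2 fold change -0.93 ± 0.37, adjusted p = 0.911, limma), the only collagen gene past that limit in that fit, at which 2.57% of all genes were lower.

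**Figure D5:**
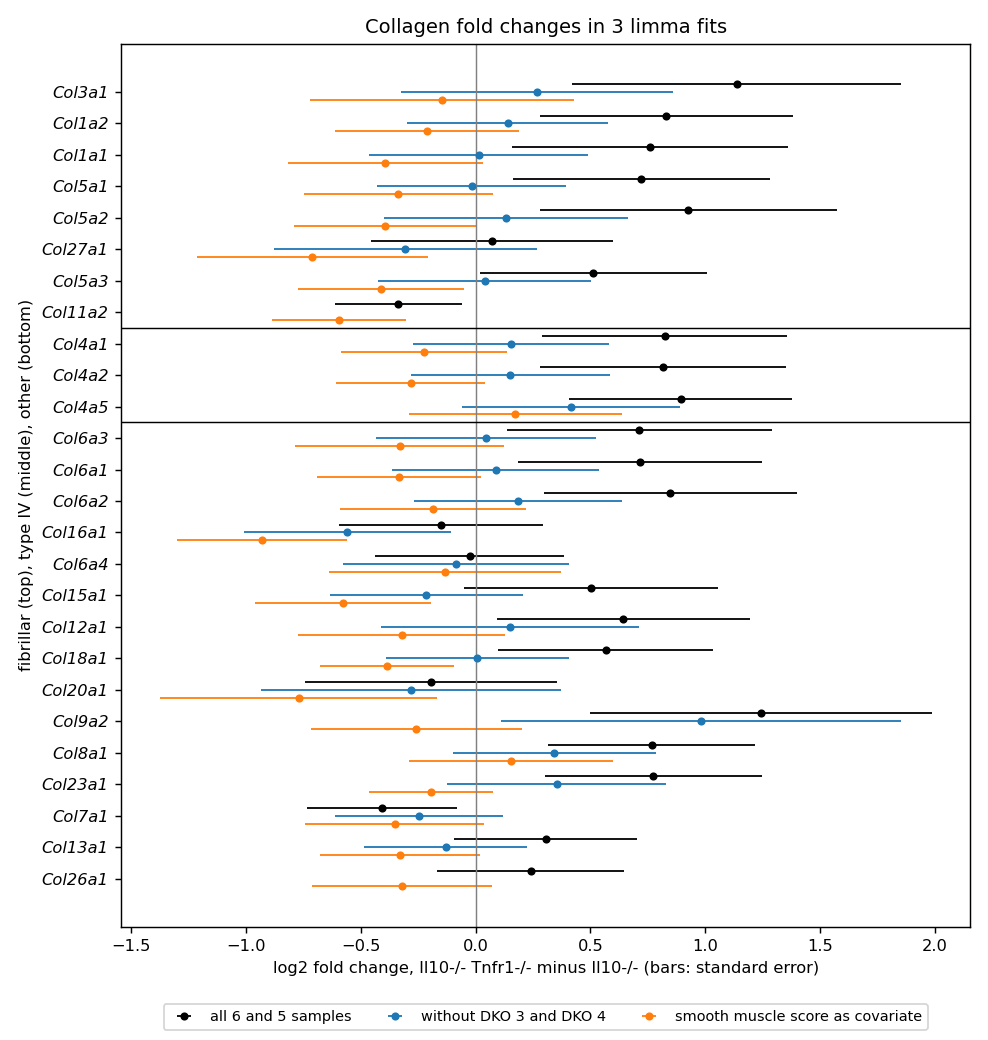
Log2 fold change of the 26 tested collagen genes with its standard error in 3 limma fits: all samples (black), without Il10-/- Tnfr1-/- replicates 3 and 4 (blue; Col11a2 and Col26a1 did not pass the filter there) and a fit that includes the smooth muscle markers (orange). Most black points lie above 0, blue points run from -0.56 to 0.98, and 24 of 26 orange points lie below 0.

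Fibroblast markers summed to between 54.1 and 390 units in Il10-/- Tnfr1-/- colons and between 31.2 and 194 units in Il10-/- colons. All 8 tested had a log2 fold change above 0 (median 0.83), with 1 higher at an unadjusted p under 0.05, the receptor gene Pdgfra, beside 4.74% of all genes. The fibroblast median was 0.31 without the samples whose names start with 2 and -0.16 within those whose names start with 1. Endothelial markers summed to between 51.0 and 175 units in Il10-/- Tnfr1-/- colons and between 47.1 and 171 units in Il10-/- colons, with 7 of 9 above 0. The summed epithelial markers ran the other way: they were at 7503 and 7552 units in Il10-/- Tnfr1-/- replicates 3 and 4, the lowest 2 samples, and 2 of 10 had a log2 fold change above 0. Of 5 pericyte markers 5 were above 0, of 9 glial and neuronal markers 8, of 6 leukocyte markers 6, of 3 skeletal muscle markers 2 and of 2 cartilage and bone markers 1. Of the mesothelium markers, 0 of 5 passed the filter. In these lists the pericyte marker Rgs5, the glial marker Gfap and the skeletal muscle marker Ckm were higher at an unadjusted p under 0.05 in limma. Ret was lower at that limit, beside 4.74% of all genes that were higher and 3.6% that were lower. Ret, a receptor of enteric neurons, averaged 7.08 ± 5.29 units in Il10-/- Tnfr1-/- colons and 17.1 ± 7.93 units in Il10-/- colons (SD; log2 fold change -1.36 ± 0.45, SE; unadjusted p = 0.0104, adjusted p = 0.536, limma). Without the samples whose names start with 2, the Ret value was -1.83 ± 0.39 (adjusted p = 0.871, limma). On the longest coding transcript of Ret alone, with all samples, it was -0.006 ± 0.50 (SE; adjusted p = 0.997, limma), so the lower gene value was not seen on that transcript. Of the 7 skeletal muscle markers found, 1 was at 0 in all samples. No marker of any list was called. The part of smooth muscle, fibroblasts, vessels and epithelium in the collagen values was not tested.

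Genes that make and bind collagen were examined in 8 lists. Of 71 tested genes in them, 59 had a log2 fold change above 0, 5 were higher at an unadjusted p under 0.05, 0 were lower and 0 were called, where 55.5% of all genes were above 0, 4.74% were higher and 3.6% were lower. Without the samples whose names start with 2, the list medians were -0.14 for chain modification, 0.23 for folding and export, -0.22 for propeptide removal and -0.09 for cross-linking. They were 0.13 for fibril-binding genes, 0.28 for receptors, -0.15 for basement membrane partners and 0.35 for the TGF-beta signal in that fit. Among 13 enzymes that modify the chains in the endoplasmic reticulum, 9 were above 0 (median 0.21) and none passed the unadjusted limit. Plod2, a lysyl hydroxylase, had a log2 fold change of 0.89 ± 0.47. Folding and export genes were above 0 in 9 of 9 (median 0.51), and Sec23a, a coat protein that procollagen export depends on, averaged 21.3 ± 4.70 units in Il10-/- Tnfr1-/- and 14.7 ± 4.57 units in Il10-/- colons (SD; unadjusted p = 0.0231, adjusted p = 0.536, limma). Serpinh1, the collagen chaperone, had a log2 fold change of 0.80 ± 0.56 and the same 2 highest samples as Col1a1. Propeptide-removing enzymes were above 0 in 3 of 3 and cross-linking enzymes in 5 of 6, with Loxl2 at 0.85 ± 0.48.

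All 11 tested fibril-binding genes had a log2 fold change above 0 (median 0.85), and their median was 0.05 within the samples whose names start with 1 and -0.32 in the fit with the smooth muscle markers. Dcn, the small proteoglycan decorin, had 81.7 and 168 units in Il10-/- Tnfr1-/- replicates 3 and 4. Its log2 fold change was 1.83 ± 0.83 (SE, unadjusted p = 0.0469, adjusted p = 0.536, limma), and that of Thbs1, thrombospondin, was 1.17 ± 0.49 (unadjusted p = 0.0346). Without the samples whose names start with 2 these were 0.92 ± 0.74 and 0.56 ± 0.37. Of 7 collagen receptor genes 6 were above 0 (median 0.57), and Itgb1, the shared beta chain of the collagen-binding integrins, averaged 143.5 ± 43.6 units in Il10-/- Tnfr1-/- and 94.2 ± 15.3 units in Il10-/- colons (SD; unadjusted p = 0.0212, adjusted p = 0.536, limma). Laminins, nidogens and other partners of type IV collagen were above 0 in 8 of 13 (median 0.28): Nid1, which links laminin to type IV collagen, was at 1.37 ± 0.67 and Lamb3, a laminin chain of epithelium, at -0.41 ± 0.19. Of 9 genes of the TGF-beta signal, a known inducer of collagen genes, 8 were above 0 (median 0.69), with Tgfb1 at 0.67 ± 0.29 (unadjusted p = 0.0391, adjusted p = 0.536, limma). Leaving out the samples whose names start with 2 brought Tgfb1 to 0.41 ± 0.27 (SE). It brought Itgb1 from 0.57 ± 0.21 to 0.32 ± 0.19 (SE).

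In the authors' deposited table of transcript comparisons, 78 collagen transcripts had a p-value, 9 of them under 0.05, beside 6.83% of all transcripts with a p-value. None had a q-value under 0.05, and the smallest q-value of a collagen transcript in the authors' deposited table was 0.684. The 9 included the full-length transcripts of Col4a1, with a log2 fold change of 1.88 in the authors' deposited table, and of Col16a1, with 2.40.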

How the data were processed

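RNA-seq of full-thickness mouse colon was available for 6 Il10-/- Tnfr1-/- and 5 Il10-/- samples. Per the submitters' processing notes, CASAVA, kallisto and sleuth were used with the mm10 build. The abundances deposited by the authors are a signal per transcript, with no counts. Their exact unit is not stated, and division by transcript length was read from the values. The authors' deposited comparison table also holds p-values and q-values, log2 fold changes, and a mean over libraries on a natural log scale. Of the abundance columns, 1 matched no sample and was not used.

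From these tables, 866 repeated rows were dropped and transcripts were summed per gene. Genes were kept if 5 or more samples had values above 1, and were tested on log2(value + 0.5) with limma 3.58.1 (R 4.3.3) and Benjamini-Hochberg adjustment. Python 3.11.15, pandas 2.3.3 and numpy 2.4.6 were used for summaries. The procedure was tested on simulated data whose spreads were drawn from below the median of all tested genes. Collagen genes mostly varied more than that, so the simulation does not show whether changes in them would be called. Genes given in full were, in each class, the 3 of highest mean and the 3 of smallest p, and for the lists the 2 genes of smallest p in each. Not all of these list genes are described in the text. Col16a1, Col6a4, Col7a1 and the chaperone gene Serpinh1 fall outside this rule and were added after their values were seen. The members and lists were chosen with earlier results of these data known. Alternatives changed the pseudocount, filter, scaling, transcripts, covariates and samples.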

Additional observations from a re-analysis of the deposited data

Results flagged for a closer look

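In 38 groups of samples examined, 3 held a sample far from the others. The rule set the gap to the nearest sample against the range, on abundances and not on log2 values. Chance alone marks about 1 group in 20 where groups are independent and values are not skewed. Genes measured in the same colons are not independent, so that rate is only a rough guide here. All 3 were Il10-/- replicate 3. Col9a2 was at 16.55 units there, and the nearest other Il10-/- colon was at 1.571 units. Col23a1 was at 4.263 units in that sample, with the nearest other at 1.49 units. Col16a1 was at 85.58 units in that sample, with the nearest other at 32.34 units.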

How the results depend on the processing

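Of 150 summary values under 25 alternatives, 18 moved by more than the limit set for them (the SD within a genotype for class medians, 1.5 times for counts), a wide limit for the medians, and of 395 values for 16 single genes 42 changed sign. Class medians without the samples named with 2 were 0.04, 0.16 and 0.03. Quantile normalization called 1 gene, Tnfrsf1a, and put 1 collagen gene lower at an unadjusted p under 0.05. Leaving out 1 sample at a time gave 0 to 2 called genes, 0 to 2 collagen genes higher and 0 to 2 lower at that limit, and class medians of 0.40 to 1.00 (fibrillar), 0.47 to 1.08 (type IV) and 0.26 to 0.86 (other). The log2 fold change of Col6a4 was then -0.52 to 0.19 and that of Col16a1 -0.40 to 0.21. With the first digit as a covariate, only the samples named with 1 can give the genotype difference, so its fold changes repeat those of these samples alone. Both are counted among the 25 alternatives. Using samples named with 1, or the first digit as a covariate, gave class medians of -0.21, -0.25 and -0.25, with Col4a1 at -0.25, Col4a2 at -0.29, Col3a1 at -0.13, Col1a2 at -0.19, Col1a1 at -0.23, Col5a2 at -0.20, Col6a3 at -0.25, Col6a1 at -0.38, Col6a2 at -0.24 and Col6a4 at 0.21. The smooth muscle covariate gave medians of -0.39, -0.23 and -0.33 and 1 collagen gene lower, with Col4a1 at -0.23, Col4a2 at -0.28, Col3a1 at -0.15, Col1a2 at -0.21, Col1a1 at -0.39, Col5a2 at -0.39, Col6a3 at -0.33, Col6a1 at -0.33, Col6a2 at -0.19, Col9a2 at -0.26 and Col23a1 at -0.19. Col6a4 was at 0.12 with equal totals per sample and at 0.29 with protein-coding transcripts only or the longest coding transcript, which also put 1 collagen gene higher. Col16a1 was at 0.17 with protein-coding transcripts only. The cause was not tested. The alternatives without samples named with 2 and with the longest coding transcript were chosen after seeing the data. No paired analysis was possible because replicate numbers follow accession order only. Without counts, the limit that depth sets on low genes is unknown.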
